A study of Mus musculus with 8 samples.

Results

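The regions described here are stretches of chromatin that gained a peak call after the transcription factor EBF1 was targeted for degradation. They were selected on the deposited peak lists: a region had to overlap, by at least 1 bp, a peak in at least 1 dTAG-13 list of each of 2 cell lines and no peak in any of the 4 DMSO lists. Of the 55193 distinct regions in the authors' deposited EBF1-dTAG_N table, 1109 (2.01%) met this rule and are called newly called regions below. The opposite pattern, a peak in at least 1 DMSO list of each line and in no dTAG-13 list, was found at 4457 regions (8.08%), or 4.02 for each newly called region. These are called DMSO-only regions and serve as the comparison. The DMSO lists were the longer ones. With the same number of best peaks taken from every list, newly called and DMSO-only regions numbered 1815 and 3017.

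ATAC-seq, in which the transposase Tn5 inserts sequencing adapters into open chromatin, was applied to mouse pro-B cells that Abelson murine leukaemia virus (A-MuLV) had transformed. In both lines, EBF1-dTAG_N and EBF1-dTAG_C, modified EBF1 stands in for the endogenous protein, per the labels. A dTAG is a degron through which the small molecule dTAG-13 recruits a ubiquitin ligase to the tagged protein. The 4 groups were EBF1-dTAG_N with 0.5 uM dTAG-13, EBF1-dTAG_C with 0.5 uM dTAG-13, EBF1-dTAG_N with DMSO and EBF1-dTAG_C with DMSO, each treated for 6 h and each with 2 libraries that the series calls biological replicates. The titles give the DMSO samples as 0 h, whereas the treatment label gives 6 h of DMSO, and all groups share the viral transformation and the replaced EBF1. The number of clones behind each line, an untagged line given dTAG-13 and the level of EBF1 protein were not analysed here.

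EBF1 is the factor that, with PAX5 and the E proteins, specifies the B lineage, and it can bind closed chromatin and open it. It activates genes of the pre-B cell receptor and also holds down genes of other blood lineages. Chromatin that opens after such a factor is removed can be bound by other factors, and the regions below record where peaks appeared, not which factor was there.

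The 8 lists held 34202 to 39721 peaks after dTAG-13, against 40166 to 42139 with DMSO. The depth in reads is unknown. The background pileup, solved from the fold enrichment and p-value of each peak, gives the relative depth: it was 0.348 and 0.372 in the EBF1-dTAG_N dTAG-13 libraries and 0.229 and 0.258 in the EBF1-dTAG_C dTAG-13 libraries, against 0.408 and 0.401 in the EBF1-dTAG_N DMSO libraries and 0.344 and 0.331 in the EBF1-dTAG_C DMSO libraries. The dTAG-13 libraries were therefore the shallower ones in both lines, and the part of this in the results was not tested. As a check of the label, 8 of 10 pro-B genes, Cd79a, Cd79b, Pax5, Ebf1, Vpreb1, Igll1 and Blnk among them, had a peak within 1 kb of an end of the gene in all 8 libraries. Dntt had one in none of them, and Rag1 in 1 dTAG-13 library and in 3 DMSO libraries. Of 6 T cell genes, 5 had none in any library and Cd3e had one in 2 dTAG-13 libraries and in 0 DMSO libraries. Of 6 myeloid genes, Cd14, Itgam, Mpo and Cebpa had none in any library. Lyz2 had one in 2 dTAG-13 libraries and in 0 DMSO libraries, and Csf1r in 2 dTAG-13 libraries and in 1 DMSO library. The check is not specific to the pro-B state, since Flt3 and Cd34 of 4 stem cell genes and Pf4 of 6 erythroid and megakaryocyte genes also had a peak in all 8 libraries, and Epor had one in 2 dTAG-13 libraries and in 3 DMSO libraries. In a bulk sample, a peak in fewer cells and a smaller peak in every cell cannot be told apart.

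Where newly called regions covered a start site, the sequence around it can be read. A window of 300 bases (250 before and 50 after a RefSeq start site, GRCm38.p6) was overlapped by 26 newly called regions (2.34%), against 80 DMSO-only regions (1.79%) and 14.8% of all regions. Of the 26 windows, 20 belonged to protein-coding genes, and this set was chosen after values were seen. The windows of 4 coding genes with the highest EBF1-dTAG_N fold changes are shown first, because these are the coding start sites with the highest deposited folds. A non-coding one, Gm52568, stood above them at 1.84 in the authors' deposited EBF1-dTAG_N table. Ccr1 (chr9:123968643-123968942, minus strand) is a chemokine receptor of myeloid cells, Evi2 (chr11:79530560-79530859, minus strand) is a common viral integration site in myeloid leukaemia, Lyz2 (chr10:117282223-117282522, minus strand) is the lysozyme of macrophages and neutrophils, and Tigit (chr16:43664135-43664434, minus strand) is an inhibitory receptor of T and NK cells. Each is written 5′ to 3′ on the gene's strand, with the bases inside the newly called region in capitals.
Ccr1: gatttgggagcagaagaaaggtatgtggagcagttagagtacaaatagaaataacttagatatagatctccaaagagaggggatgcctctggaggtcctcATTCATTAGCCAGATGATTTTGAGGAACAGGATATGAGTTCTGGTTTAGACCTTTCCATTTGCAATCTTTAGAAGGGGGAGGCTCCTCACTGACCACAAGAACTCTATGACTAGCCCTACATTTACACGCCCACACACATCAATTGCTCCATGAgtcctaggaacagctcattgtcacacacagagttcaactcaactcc
Evi2: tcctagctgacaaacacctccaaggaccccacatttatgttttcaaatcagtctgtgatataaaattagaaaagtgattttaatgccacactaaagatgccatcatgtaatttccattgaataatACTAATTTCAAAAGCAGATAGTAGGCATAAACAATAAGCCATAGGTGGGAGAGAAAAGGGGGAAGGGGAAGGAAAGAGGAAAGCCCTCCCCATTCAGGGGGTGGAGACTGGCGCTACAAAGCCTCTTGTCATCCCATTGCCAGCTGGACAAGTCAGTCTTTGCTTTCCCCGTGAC
Lyz2: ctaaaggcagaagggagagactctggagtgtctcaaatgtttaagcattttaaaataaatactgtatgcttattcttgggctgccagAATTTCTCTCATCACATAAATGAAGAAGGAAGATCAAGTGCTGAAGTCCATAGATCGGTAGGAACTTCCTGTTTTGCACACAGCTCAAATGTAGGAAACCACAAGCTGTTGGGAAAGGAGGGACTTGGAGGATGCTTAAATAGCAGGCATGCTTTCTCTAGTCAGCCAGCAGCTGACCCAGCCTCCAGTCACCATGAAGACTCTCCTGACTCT
Tigit: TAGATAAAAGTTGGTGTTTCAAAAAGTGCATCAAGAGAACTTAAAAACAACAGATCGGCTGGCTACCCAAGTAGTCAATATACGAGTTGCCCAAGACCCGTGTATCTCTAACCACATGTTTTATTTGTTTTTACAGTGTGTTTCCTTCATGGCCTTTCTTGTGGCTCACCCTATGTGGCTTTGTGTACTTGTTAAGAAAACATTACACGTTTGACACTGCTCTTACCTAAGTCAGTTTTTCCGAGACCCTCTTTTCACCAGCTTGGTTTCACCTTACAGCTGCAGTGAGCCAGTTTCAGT
The capitals cover 154 bases at Ccr1, 175 at Evi2, 213 at Lyz2 and all 300 at Tigit. The next pair is shown for contrast: these are the coding genes whose start-site region had a peak in all 4 dTAG-13 lists. Enpep (chr3:129332700-129332999, minus strand) encodes glutamyl aminopeptidase, and Ech1 (chr7:28825088-28825387, plus strand) encodes an enoyl-CoA isomerase of fatty acid breakdown.
Enpep: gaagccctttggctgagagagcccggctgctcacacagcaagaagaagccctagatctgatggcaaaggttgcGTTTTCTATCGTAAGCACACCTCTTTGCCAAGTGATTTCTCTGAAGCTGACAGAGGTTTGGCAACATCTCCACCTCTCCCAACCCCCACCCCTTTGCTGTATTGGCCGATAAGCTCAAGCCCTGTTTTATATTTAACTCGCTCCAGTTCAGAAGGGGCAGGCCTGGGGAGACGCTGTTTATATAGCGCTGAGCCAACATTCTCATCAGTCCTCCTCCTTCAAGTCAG
Ech1: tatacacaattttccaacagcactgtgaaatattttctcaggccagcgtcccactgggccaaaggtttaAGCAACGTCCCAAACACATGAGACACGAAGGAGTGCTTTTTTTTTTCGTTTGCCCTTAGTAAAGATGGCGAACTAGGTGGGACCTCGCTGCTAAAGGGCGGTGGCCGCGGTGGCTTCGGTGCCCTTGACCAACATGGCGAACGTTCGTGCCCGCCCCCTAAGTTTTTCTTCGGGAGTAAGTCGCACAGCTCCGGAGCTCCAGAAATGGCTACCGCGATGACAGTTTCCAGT
The capitals cover 227 bases at Enpep and 231 at Ech1. CpG dinucleotides numbered 1 at Ccr1, 2 at Evi2, 1 at Lyz2, 5 at Tigit and 7 at Enpep, against 19 at Ech1. The median window of a newly called region held 8 CpG and 54.8% G+C. This was close to the 6 CpG and 53.2% G+C of DMSO-only windows and the 7 CpG and 52.7% G+C of all windows, while windows overlapped by any region held a median of 22 CpG and 61.7% G+C.

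The EBF1 letters TCCCNNGGG, searched on both strands, stood in 1 of the 26 windows (3.85%), that of Nfe2l3. They stood in 24 of the 84 windows overlapped by DMSO-only regions (28.6%), in 7.89% of windows overlapped by any region and in 6.56% of all 32851 windows. The RUNX letters TGTGGTT were found in 4 windows (15.4%), those of Lyz2, Tigit, Serf1 and Pou2f2, against 4 of 84 DMSO-only windows (4.76%) and 5.27% of all windows. The E-box CAGCTG stood in 7 (26.9%), Evi2, Lyz2 and Tigit among them, against 22.6% of DMSO-only windows and 16.3% of all windows. Windows overlapped by any region gave 3.83% for RUNX and 14.1% for CAGCTG. The E-box CAGGTG went the other way, at 19.2%, against 28.6% of DMSO-only windows and 20.2% of all windows. The KLF/SP letters GGGCGG stood in 46.2%, against 34.5% of DMSO-only windows, 35.7% of all windows and 67.0% of windows overlapped by any region. Further motifs were searched and are not given here. The ETS letters GGAAG were near ubiquitous, at 73.1% of the 26 windows and 71.4% of all windows. Whole windows were searched, so a match can lie outside the newly called region, as the RUNX match at Serf1 did. Matches of different motifs may overlap, and these shares are descriptions of letters over few windows, not of binding. Sequence away from start sites was not used here.

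The new peaks were weak ones. In the EBF1-dTAG_N dTAG-13 libraries, replicate 1 had a peak at 581 newly called regions and replicate 2 at 813. In the EBF1-dTAG_C dTAG-13 libraries, replicate 1 had one at 706 and replicate 2 at 592. The summit pileup, the number of fragments stacked at the highest point of a peak, had a median of 9 in 3 of these libraries and of 8 in EBF1-dTAG_C replicate 2. Over all peaks of the 4 lists the medians were 18 to 21, and the lowest pileup at which any peak was called was 4. The median −log10 q of the new peaks was 6.81 to 7.21, against 15.2 to 17.3 over all peaks of the same lists. DMSO-only regions stood higher in their own lists, with a median pileup of 20 and 19 in the EBF1-dTAG_N DMSO libraries and of 13 and 13 in the EBF1-dTAG_C DMSO libraries. The new peaks were the weaker of the 2 sets.

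**Figure D1:**
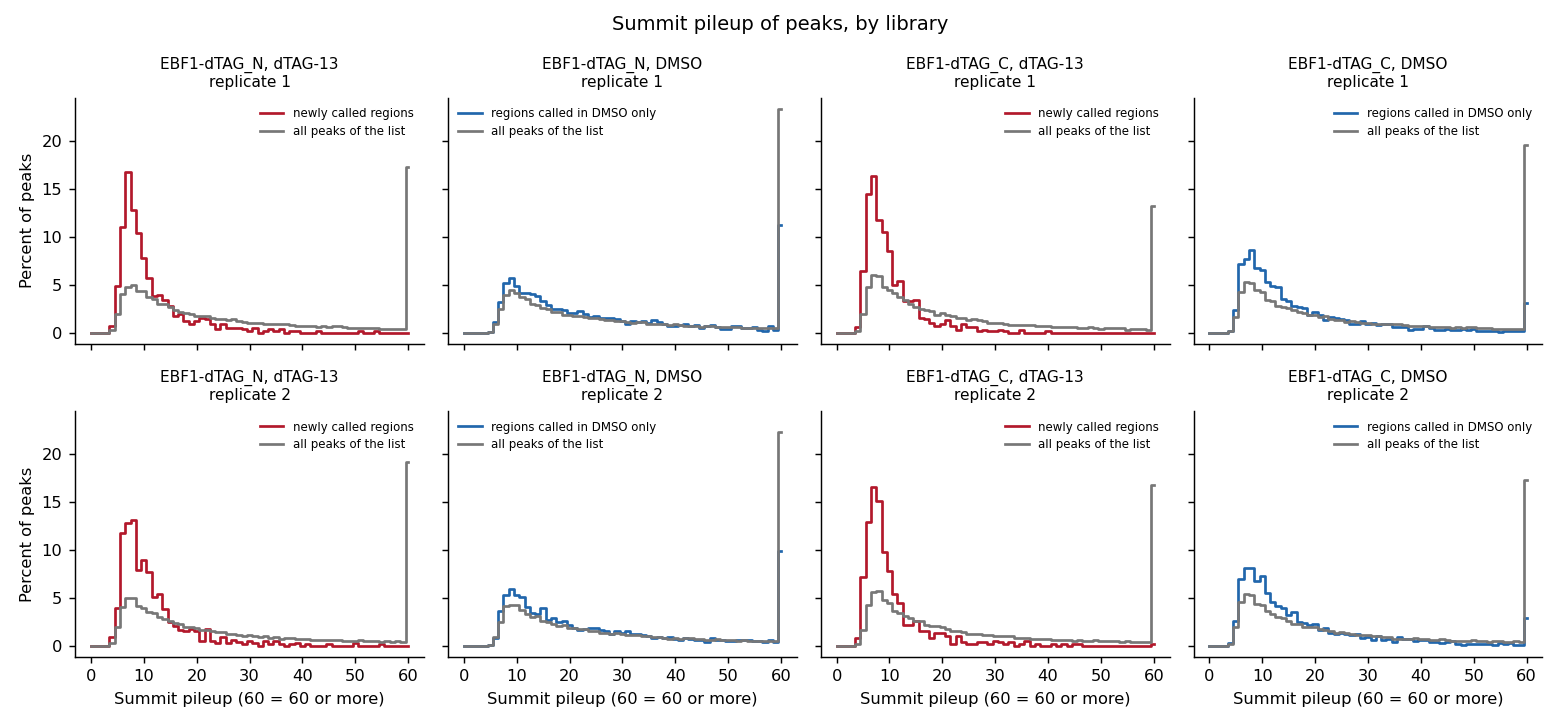
Share of peaks (y, percent) at each summit pileup (x, 60 standing for 60 or more) in each library, for newly called regions in the dTAG-13 lists (red), DMSO-only regions in the DMSO lists (blue) and all peaks of the list (grey). The new peaks crowd at low pileups, with medians of 8 or 9, and the DMSO-only peaks spread further up.

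Few were called in every dTAG-13 library, and single libraries weighed on the number. Without EBF1-dTAG_N dTAG-13 replicate 2 the rule left 581 regions, without EBF1-dTAG_C dTAG-13 replicate 1 it left 592 and without replicate 2 of the same group 706. Without EBF1-dTAG_C DMSO replicate 2 it gave 1797. Of the 1109 regions, 702 had a peak in 2 dTAG-13 lists, 340 in 3 and 67 in all 4. The most weakly called were next to Gm50595 (chr2:75643363-75643512), in Sltm (chr9:70585358-70585549) and in a span assigned to Agrp (chr8:105573525-105573724). Their best peaks had a −log10 q of 2.96, 3.16 and 3.39, with pileups of 5 or 6. Just outside the rule lay a region nearest Nos2 (chr11:78886784-78886990). It had pileups of 7 and 8 in 1 dTAG-13 list of each line and 1 DMSO peak, of pileup 4 and −log10 q 2.18, in EBF1-dTAG_C replicate 1. Regions nearest Ptpn11 and Exoc4 likewise failed through a single DMSO peak of pileup 4, with a −log10 q of 2.27 each. In all, 1842 regions failed through 1 DMSO list, more than met the rule.

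Both lines' peaks had to overlap the same region, which limits how far apart their summits can lie. The strongest summits of EBF1-dTAG_N and EBF1-dTAG_C lay a median of 19 bp apart and within 50 bp of each other at 77.2% of newly called regions, against 15 bp and 78.5% at DMSO-only regions, and 29 newly called regions had summits over 150 bp apart. The nearest DMSO peak was a median of 4287 bp away. It lay within 500 bp at 144 regions, and at 22 regions the overlapping region of the EBF1-dTAG_C table also held a DMSO peak. The other 965 regions gave like values: median log2 fold changes of 0.88 in the authors' deposited EBF1-dTAG_N table and 0.70 in the EBF1-dTAG_C table.

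The peak pattern seen in 1 line was then read in the libraries of the other line, which took no part in choosing it. Of 8795 regions with a peak after dTAG-13 and none with DMSO in EBF1-dTAG_N, 12.6% had the same pattern in EBF1-dTAG_C, 14.5% had the opposite pattern, 25.5% had peaks with both agents and 47.3% had none. Over all 55193 regions of the EBF1-dTAG_N table the shares in the EBF1-dTAG_C lists were 4.94% dTAG-13-only and 15.8% DMSO-only, so the same pattern was more frequent than over the table and the opposite one about as frequent. Of 5862 such regions chosen in EBF1-dTAG_C, 19.0% had the same pattern in EBF1-dTAG_N and 6.89% the opposite one. Over all 54239 regions of the EBF1-dTAG_C table these shares were 8.60% and 11.4%. Of 11715 regions with peaks in DMSO lists only in EBF1-dTAG_N, 38.0% repeated this in EBF1-dTAG_C, against 15.8% over the table, and 3.31% reversed it, against 4.94%. Of 13604 chosen in EBF1-dTAG_C, 32.4% repeated it in EBF1-dTAG_N, against 11.4%, and 9.45% reversed it, against 8.60%. Asking for both dTAG-13 lists left 1948 regions in EBF1-dTAG_N, of which 14.6% showed the pattern and 14.6% its opposite in EBF1-dTAG_C (285 and 284 regions). It left 751 regions in EBF1-dTAG_C, of which 24.8% showed the pattern and 5.59% its opposite in EBF1-dTAG_N. The whole tables also hold regions with other peak patterns in the line used for choosing, so they are not a matched background for any of these shares.

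**Figure D2:**
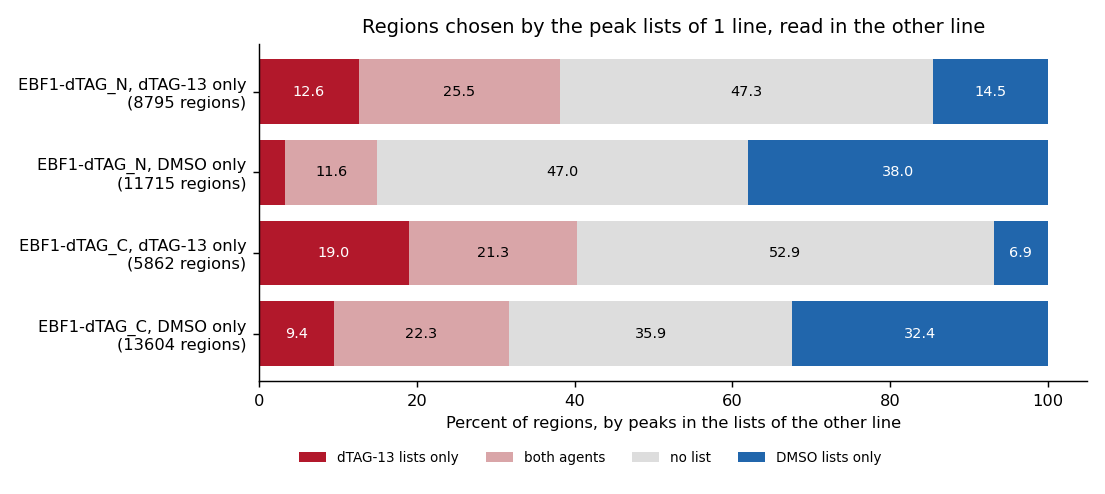
Regions chosen by the peak lists of 1 line (rows), divided by their peaks in the lists of the other line (x, percent of regions). The red share, which repeats gain of a peak, is 12.6% and 19.0% for dTAG-13-only regions, and the blue share, which repeats loss, is 38.0% and 32.4% for DMSO-only regions. Over all regions the corresponding shares are 4.94% and 8.60% for gain and 15.8% and 11.4% for loss.

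The fold changes of the other line also took no part in that choice. Regions chosen as dTAG-13-only in EBF1-dTAG_N had, in the authors' deposited EBF1-dTAG_C table, a median log2 fold change of 0.31 over 4589 regions with a value, where positive means more accessible after dTAG-13. Of these, 73.1% were positive, against 59.4% of the whole table. By the deposited adjusted p under 0.05, 20 were higher (0.436%), against 0.308% of all 54239 regions of that table, and 3 were lower (0.0654%), against 6.62%. Regions chosen in EBF1-dTAG_C had a median of 0.42 over 2723 regions in the authors' deposited EBF1-dTAG_N table, and 77.7% were positive, against 62.9% of the whole table. There 506 were called higher (18.6%), against 18.8% of all 55193 regions, and 64 lower (2.35%), against 18.5%. The share called higher was at the background in EBF1-dTAG_N, while the share called lower lay under it in both lines. The whole table also holds regions with DMSO peaks, so it is not a matched background for the share called lower, the share called higher or the positive share. Regions chosen as DMSO-only in the other line were called lower at 29.1% in EBF1-dTAG_C and 47.6% in EBF1-dTAG_N.

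Across the 1109 regions themselves, the fold changes describe the selection and carry no test, since the peak lists and the tables come from the same libraries. Deposited p-values of these regions are given below in the same sense, and higher or lower is said of those under 0.05. The median log2 fold change in the authors' deposited tables was 0.84 in EBF1-dTAG_N, a 1.79-fold difference, against 0.17 over all its regions. It was 0.67 in EBF1-dTAG_C, a 1.59-fold difference over the 1084 regions with a value, against 0.09 over all its regions. Values ranged from -1.46 to 6.13 in EBF1-dTAG_N and from -1.32 to 3.64 in EBF1-dTAG_C, and 947 regions (87.4%) were positive in both. In EBF1-dTAG_N, by the authors' deposited table, 295 (26.6%) were called higher, against 18.8% of all regions, and 9 (0.812%) lower, against 18.5%. In EBF1-dTAG_C, by the authors' deposited table, 8 (0.738%) were called higher, against 0.308%, and 0 lower, against 6.62%, with 3 lower at an unadjusted p under 0.05. Both tables are edgeR results, and their p-values cannot be set side by side. The deposited F and p-value give 110386 denominator degrees of freedom in EBF1-dTAG_N and 11.2 in EBF1-dTAG_C. Read with the smaller number, 175 newly called regions (15.8%) were higher in EBF1-dTAG_N, against 12.4% of all. With the peak list of 1 library left out, the rule chose other regions, while calls were still read from the full deposited tables. The 295 became 191 without the list of EBF1-dTAG_N dTAG-13 replicate 2 and 144 without that of EBF1-dTAG_C dTAG-13 replicate 1. Without the list of EBF1-dTAG_C DMSO replicate 2 there were 520. The 8 became 5 without the list of either EBF1-dTAG_N dTAG-13 library. With folds centred on the table's median, 190 (17.1%) were called higher in EBF1-dTAG_N, against 7.98% of all regions. In EBF1-dTAG_C 7 were, against 0.162%.

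**Figure D3:**
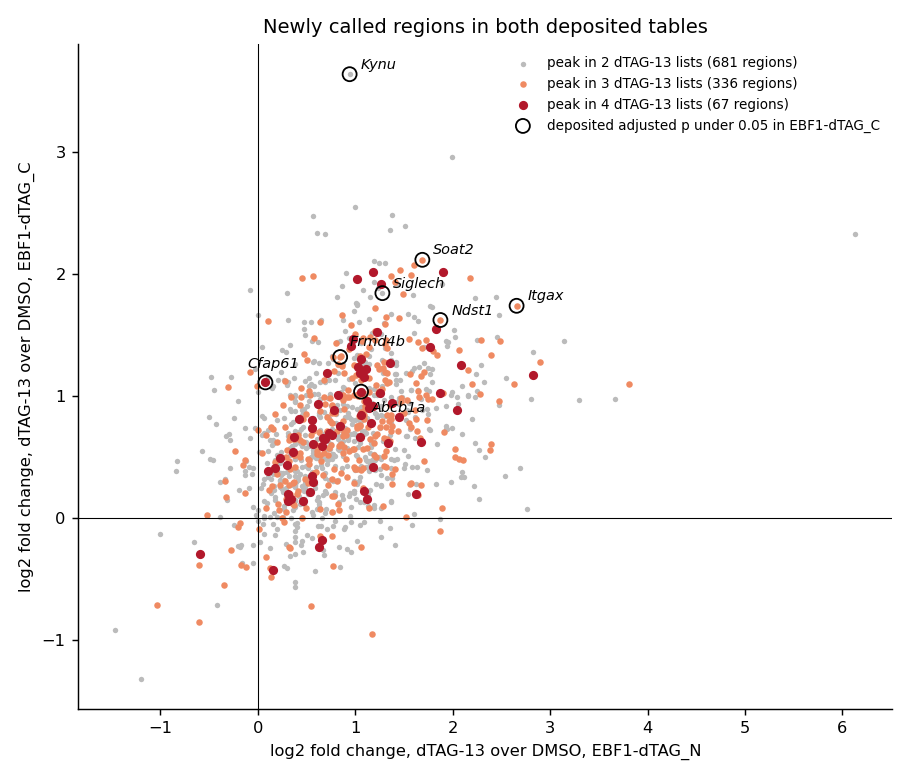
Log2 fold change of dTAG-13 over DMSO in the authors' deposited EBF1-dTAG_N table (x) and EBF1-dTAG_C table (y) for the 1084 newly called regions with both values, coloured by the number of dTAG-13 lists with a peak. Most lie above 0 on both axes, and the 8 circled regions passed an adjusted p of 0.05 in EBF1-dTAG_C.

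Regions called in more libraries were also more abundant. The median log2 fold change in the authors' deposited EBF1-dTAG_N table was 0.77 with a peak in 2 dTAG-13 lists, 0.92 in 3 and 0.98 in all 4, and 129 (18.4%), 132 (38.8%) and 34 (50.7%) were called higher. The median abundance of the newly called regions was 0.96 log2 CPM, against 2.47 over all regions. Among regions with dTAG-13 peaks in both lines, fold changes were lower the more DMSO lists also held a peak. Medians in the EBF1-dTAG_N table were 0.84 with none, 0.67 with 1, 0.57 with 2, 0.35 with 3 and 0.19 with all 4. The share called higher did not follow, at 26.6%, 23.7%, 25.1%, 22.3% and 29.1%. Peak counts and folds come from the same libraries, so the sorting itself favours both orderings of the folds, and neither was tested. In this sorting the newly called regions were the end of a range in fold and abundance. Their share of calls was like that of regions with a peak under both agents.

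A set of 4 of the 1084 regions with both values was called higher in both deposited tables. The same count over all regions is not given here, so these 4 have no background share. With folds centred on each table's median, Soat2 and Itgax kept both calls, Frmd4b lost that in EBF1-dTAG_N and Abcb1a that in EBF1-dTAG_C. Soat2, which esterifies cholesterol, held one 530 bp from an end of the gene span, the measure used where no start site was listed (chr15:102150852-102151038). Its pileup was 9 in EBF1-dTAG_N replicate 1, 13 and 8 in EBF1-dTAG_C replicates 1 and 2, and no peak was called in EBF1-dTAG_N replicate 2 or with DMSO. In the authors' deposited tables its log2 fold change was 1.69 in EBF1-dTAG_N (deposited adjusted p = 0.0199) and 2.12 in EBF1-dTAG_C (0.0147). Itgax, which encodes the integrin CD11c of dendritic cells, held one inside the gene (chr7:128137102-128137291). Its pileup was 8 in EBF1-dTAG_N replicate 2 and 14 and 15 in EBF1-dTAG_C, with no peak in EBF1-dTAG_N replicate 1. The authors' deposited tables gave a log2 fold change of 2.66 in EBF1-dTAG_N (adjusted p = 0.00152) and 1.74 in EBF1-dTAG_C (0.0301). Abcb1a, a drug efflux pump, was the one of the 4 with a peak in every dTAG-13 list, at pileups of 10 and 10 in EBF1-dTAG_N and 9 and 11 in EBF1-dTAG_C (chr5:8675696-8676174). Its deposited log2 fold changes in the authors' deposited tables were 1.06 (adjusted p = 7.35e-05) in EBF1-dTAG_N and 1.04 (0.0406) in EBF1-dTAG_C. Frmd4b, a FERM domain protein, had pileups of 13 in EBF1-dTAG_N replicate 2 and 16 and 19 in EBF1-dTAG_C (chr6:97457387-97457545). Its log2 fold changes in the authors' deposited tables were 0.85 (adjusted p = 0.0286) and 1.32 (0.0329) in EBF1-dTAG_N and EBF1-dTAG_C. The abundance was low at Soat2 and Itgax in EBF1-dTAG_N (0.75 and 0.56 log2 CPM) and above the EBF1-dTAG_N median of newly called regions at Abcb1a and Frmd4b (2.99 and 2.11).

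A further 4 regions were called higher in the authors' deposited EBF1-dTAG_C table alone, which does not show that the lines differ there. The largest fold was at Kynu, the kynureninase of tryptophan breakdown (chr2:43569980-43570145), with a deposited log2 fold change of 3.64 (adjusted p = 0.0395) in EBF1-dTAG_C and 0.94 (0.163) in EBF1-dTAG_N. It had pileups of 9 and 7 in 1 dTAG-13 list of each line. A region 23.4 kb from Siglech, a receptor of plasmacytoid dendritic cells, had 1.84 in EBF1-dTAG_C (adjusted p = 0.0185) and 1.28 in EBF1-dTAG_N (0.271) in the authors' deposited tables. In the same deposited tables of the authors, Ndst1, a heparan sulphate enzyme, had 1.62 (0.0327) in EBF1-dTAG_C and 1.87 (0.0638) in EBF1-dTAG_N. A region near Cfap61, of cilia and flagella, had 1.11 (0.0254) in EBF1-dTAG_C and 0.08 (0.848) in EBF1-dTAG_N in the authors' deposited tables. Cfap61 was a case where lists and table parted: all 4 dTAG-13 libraries had a peak, at pileups of 14, 12, 20 and 30, while the deposited EBF1-dTAG_N fold was near 0.

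**Figure D4:**
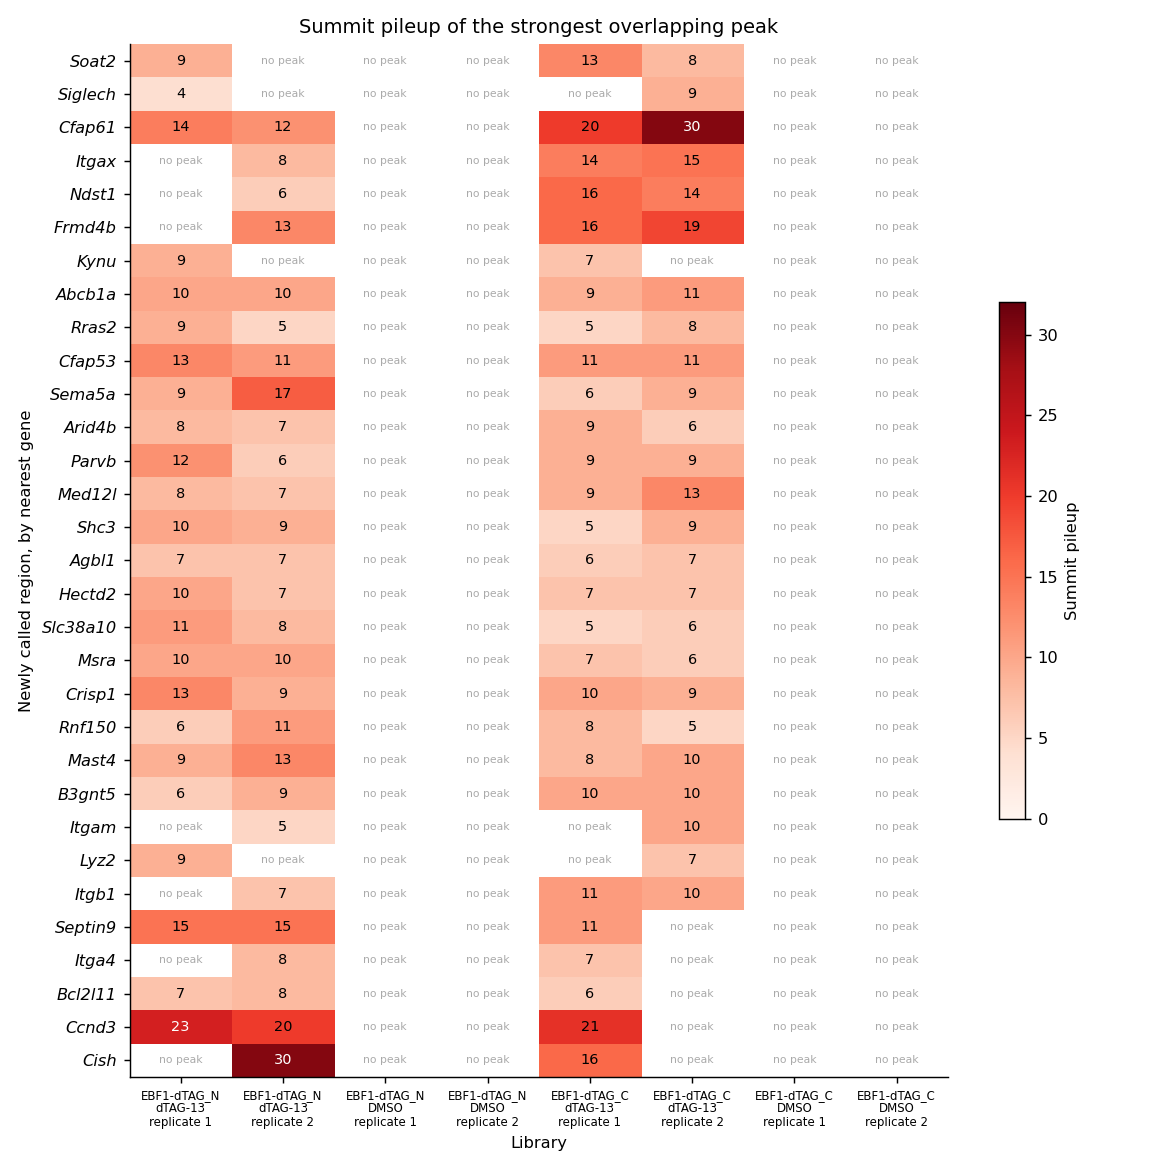
Summit pileup of the strongest overlapping peak (colour and number) at named newly called regions (rows, by nearest gene) in each library (columns, dTAG-13 left of DMSO within each line). Every DMSO cell is empty by the rule, and most dTAG-13 pileups lie between 4 and 20, with up to 30 among the rows shown, at Cfap61 and Cish. Regions with higher values, such as that at Ech1, are not among these rows.

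Start-site regions gave mixed values. In the authors' deposited EBF1-dTAG_N table Evi2 rose by 1.56 on the log2 scale (adjusted p = 1.38e-09), with 1.18 in EBF1-dTAG_C (0.132) and pileups of 26, 19 and 21 in 3 dTAG-13 libraries. By the authors' deposited tables, Tigit rose by 1.51 in EBF1-dTAG_N (adjusted p = 0.000237) and had 2.40 in EBF1-dTAG_C (0.0788). Ccr1 rose by 1.62 in the authors' deposited EBF1-dTAG_N table (adjusted p = 0.0170) and had 0.89 in EBF1-dTAG_C (0.171). Lyz2 had 1.55 (0.0883) and 0.87 (0.623) in EBF1-dTAG_N and EBF1-dTAG_C, and passed in neither of the authors' deposited tables. Start-site peaks in all 4 dTAG-13 lists went with small folds: 0.54 (0.170) at Enpep and 0.10 (0.780) at Ech1 in the authors' deposited EBF1-dTAG_N table, and 0.21 (0.874) and 0.38 (0.660) in the EBF1-dTAG_C table. Ech1 had pileups of 25, 17, 13 and 41.

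Among the 67 regions with a peak in all 4 dTAG-13 lists, the 15 with the highest ranks of fold change in both tables were mostly weak peaks. Rras2, a RAS-related GTPase, had pileups of 9, 5, 5 and 8, and log2 fold changes of 1.90 in EBF1-dTAG_N (adjusted p = 0.0173) and 2.02 in EBF1-dTAG_C (0.163) in the authors' deposited tables. Sema5a, a semaphorin guidance protein, had pileups of 9, 17, 6 and 9, and 2.09 in EBF1-dTAG_N (adjusted p = 0.000156) and 1.26 in EBF1-dTAG_C (0.418) in the authors' deposited tables. Med12l, related to the Mediator subunit MED12, had pileups of 8, 7, 9 and 13, and 2.82 (adjusted p = 2.23e-05) and 1.17 (0.303) in the authors' deposited EBF1-dTAG_N and EBF1-dTAG_C tables. Msra, a methionine sulphoxide reductase, had pileups of 10, 10, 7 and 6. Its folds were 2.04 (adjusted p = 0.000803) and 0.88 (0.513) in the same deposited tables by the authors. The others were nearest Cfap53, Arid4b, Parvb, Shc3, Agbl1, Hectd2, Slc38a10, Crisp1, Rnf150, Mast4 and B3gnt5. None of the 15 passed an adjusted p of 0.05 in the authors' deposited EBF1-dTAG_C table.

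The rule and the folds disagreed at 9 regions, which were called lower in the authors' deposited EBF1-dTAG_N table although a peak had appeared. The lowest was inside 3110009E18Rik (chr1:120171944-120172110), with a log2 fold change of -1.46 in EBF1-dTAG_N (adjusted p = 1.63e-06) and -0.92 in EBF1-dTAG_C (0.186), and pileups of 14 and 17 in 1 dTAG-13 list of each line. Plxna1, a semaphorin receptor, had -1.20 (adjusted p = 0.000445) and -1.32 (0.175) in the authors' deposited EBF1-dTAG_N and EBF1-dTAG_C tables. Lhpp, a histidine phosphatase, had -1.03 (adjusted p = 5.85e-08) and -0.71 (0.498) in those tables of the authors' deposited comparison, with pileups of 27, 31 and 14. Stk38l, Col26a1, Cpne2, Sgip1 and Atp13a2 were nearest to others of the 9, with values from -0.82 to -0.57 in the authors' deposited EBF1-dTAG_N table. The region at Sgip1 had a peak in all 4 dTAG-13 lists, at pileups of 13, 9, 6 and 7. Its folds in the authors' deposited tables were -0.59 in EBF1-dTAG_N (adjusted p = 0.0276) and -0.30 in EBF1-dTAG_C (0.776). Cpe and St8sia1 were also among the 5 lowest folds, and neither passed in the authors' deposited EBF1-dTAG_N table (adjusted p = 0.279 at Cpe and 0.495 at St8sia1).

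New peaks were found mostly away from start sites. Within 1 kb of a protein-coding start lay 63 newly called regions (5.68%, Wilson 95% interval 4.47% to 7.20%), against 5.99% of DMSO-only regions and 21.0% of all regions. Regions of the table with no DMSO peak at all gave 6.36%. Inside a protein-coding gene lay 603 (54.4%), against 56.7% of DMSO-only regions and 54.1% of all regions. The median distance to a start was 21211 bp, against 19794 bp for DMSO-only regions and 13655 bp for all regions. The new regions were narrow, with a median width of 223 bp, against 282 bp and 293 bp for the same 2 sets. Their position was thus close to that of the DMSO-only regions and differed from that of the whole table, in which regions with peaks in all lists are included. Intervals cover counting error only. No newly called region overlapped any of 1005 miRNA hairpins.

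**Figure D5:**
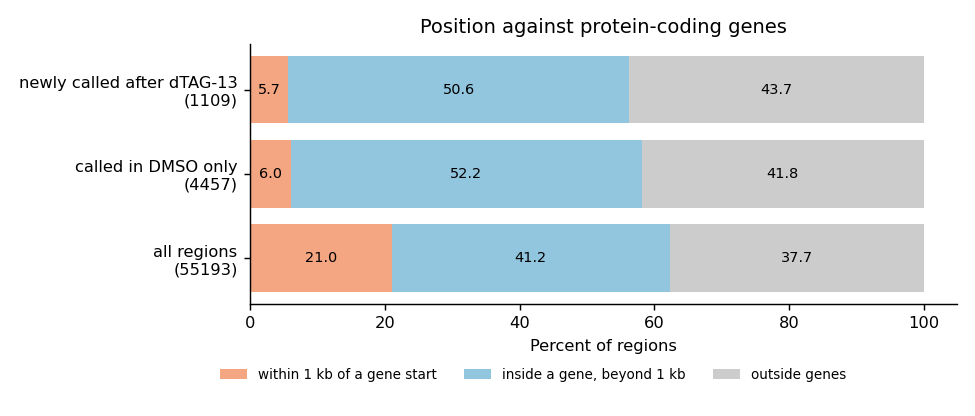
Percent of regions (x) within 1 kb of a protein-coding gene start, inside a gene beyond that distance, and outside genes, for newly called regions, DMSO-only regions and all regions of the EBF1-dTAG_N table. The near-start share is 5.68% for newly called regions, 5.99% for DMSO-only regions and 21.0% for all regions.

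The new regions were spread over many genes. Assigned to the nearest protein-coding gene within 100 kb, they fell at 935 of the 14296 genes with any region (6.54%), and 87 had no gene in reach. Of these genes 861 held 1 new region, 64 held 2 and 10 held 3 or more. A DMSO-only region was also present at 38.4% of the 935 genes, against 21.4% of all 14296. Genes with a new region had more regions to begin with, a median of 6 against 2. Snx29, a sorting nexin, held the most, with 5, of which 4 were called higher in the authors' deposited EBF1-dTAG_N table, with log2 fold changes of 1.11, 2.18, 1.95 and 1.74 and adjusted p of 0.000348, 0.0289, 0.00521 and 0.00260. The fifth, at 0.30 (0.425), had a peak in all 4 dTAG-13 lists with pileups of 13, 19, 25 and 11. In the EBF1-dTAG_C table the 5 values lay between 0.39 and 1.97 and none passed. Of all 44 regions at Snx29, 16 were called higher and 8 lower in EBF1-dTAG_N, and 2 were DMSO-only. Septin9, a cytoskeletal GTPase, held 4, of which the region at chr11:117314095-117314345 was called higher in the authors' deposited EBF1-dTAG_N table at 1.35 (adjusted p = 0.00535), with pileups of 15, 15 and 11. Of all 34 regions at Septin9, 9 were called higher and 8 lower. Ankrd11, Arhgef17, B4galt5, Dtnb, Msi2, Msra, Sgip1 and St8sia1 held 3 each. Msi2 had 4 regions called higher and 19 lower out of 43, with 6 DMSO-only. Sgip1 had 1 called higher and 10 lower out of 34, with 4 DMSO-only. The other genes with 3 had at least as many regions called higher as lower.

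The gene lists were read against the share over the whole table, 2.01% of regions. Counts called higher stand beside 26.6% of all newly called regions and 18.8% of all regions in EBF1-dTAG_N. In EBF1-dTAG_C these shares were 0.738% and 0.308%. Each list held few newly called regions, and the counts were not tested. None of 24 EBF1 target and B lineage surface genes, with 132 regions in the table, held a newly called region, and 11 of these regions were DMSO-only. The B lineage transcription factors held 13 at 11 of 25 genes, 3.23% of their 402 regions, and 5 of the 13 were called higher in the authors' deposited EBF1-dTAG_N table and 0 in the EBF1-dTAG_C table. Their median log2 fold changes in the authors' deposited tables were 0.83 in EBF1-dTAG_N and 0.88 in EBF1-dTAG_C, against 0.84 and 0.67 over all newly called regions. These genes were Bach2, Bcl11a, Bcl6, Ebf1, Irf8, Lef1, Mef2c, Myb, Pax5, Pou2f2 and Tcf12. Bcl6, a repressor of germinal centre B cells, had pileups of 6, 6 and 7 in 3 dTAG-13 libraries, and rose by 2.29 (log2) in the authors' deposited EBF1-dTAG_N table (adjusted p = 0.000976), with 1.46 in EBF1-dTAG_C (0.405). Mef2c, a MADS-box transcription factor, rose by 1.71 in the authors' deposited EBF1-dTAG_N table (adjusted p = 0.0127), with 1.40 in EBF1-dTAG_C (0.578). Tcf12, the E protein HEB, rose by 1.46 in the authors' deposited EBF1-dTAG_N table (adjusted p = 0.00466), with 2.04 in EBF1-dTAG_C (0.148). The region at Ebf1 itself (chr11:44894868-44895112), named after its values were seen, rose by 0.87 in the authors' deposited EBF1-dTAG_N table (adjusted p = 0.00423), with 0.80 in EBF1-dTAG_C (0.527). The fifth region called higher was at Myb, with 0.92 in the authors' deposited EBF1-dTAG_N table (adjusted p = 0.00418) and 0.34 in EBF1-dTAG_C (0.767). The pre-B cell receptor and PI3K signalling list held 7 at 7 of 20 genes, 2.61% of its 268 regions, with 1, at Inpp5d, called higher in EBF1-dTAG_N and median folds of 0.56 and 0.73 in the authors' deposited EBF1-dTAG_N and EBF1-dTAG_C tables. Its named regions, at Fyn, Plcg2 and Pik3ap1, each had 1.37 in the authors' deposited EBF1-dTAG_N table and passed in neither table.

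Genes of other lineages showed a few single regions. Of 17 myeloid genes with a region, 3 held a newly called one: Itgax and Lyz2, given above, and Itgam, the integrin CD11b (chr7:128105401-128105567). The Itgax region (chr7:128137102-128137291) lies close by, so Itgam and Itgax are not separate loci. Itgam had pileups of 5 and 10 in 1 dTAG-13 list of each line, and rose by 2.05 in the authors' deposited EBF1-dTAG_N table (adjusted p = 0.00221), with 0.93 in EBF1-dTAG_C (0.341). The 3 are 4.69% of the 64 regions of the list. The 2 at Itgam and Itgax were called higher in EBF1-dTAG_N, and 1, at Itgax, in EBF1-dTAG_C. Over all newly called regions the shares called higher were 26.6% and 0.738%. Of 21 T and innate lymphoid genes with a region, 107 regions in all, none held one. Tigit, which is not on that list, did. Of 15 stem, progenitor, erythroid and megakaryocyte genes with a region 1 did (1.33% of 75 regions), Ly6a, at 0.63 (adjusted p = 0.442) in EBF1-dTAG_N and 0.11 (0.978) in EBF1-dTAG_C in the authors' deposited tables. None of 15 housekeeping genes held one.

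The homing, adhesion and egress list held 8 newly called regions at 5 of 14 genes, or 5.63% of its 142 regions, with 2 called higher in the authors' deposited EBF1-dTAG_N table and 0 in EBF1-dTAG_C. Over all newly called regions the shares called higher were 26.6% and 0.738%. The list's median folds were 0.71 and 0.69 in the authors' deposited EBF1-dTAG_N and EBF1-dTAG_C tables. Septin9 supplied 4 of the 8, and without it the list held 4 in 108 regions (3.70%). Beside Septin9, Cxcr4, Itga4 and Itgb1 were among the genes. The region nearest Itgb1, the integrin beta-1 chain, lay 30.9 kb away, with pileups of 7, 11 and 10. It rose by 1.90 in the authors' deposited EBF1-dTAG_N table (adjusted p = 0.0110), with 1.03 in EBF1-dTAG_C (0.109). Itga4, the integrin alpha-4 chain, had 1.02 (0.232) and 0.28 (0.909) in the authors' deposited EBF1-dTAG_N and EBF1-dTAG_C tables.

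Cytokine, STAT and survival genes held 7 at 6 of 23 genes (3.47% of 202 regions), and 4 of the 7 were called higher in EBF1-dTAG_N. Over all newly called regions that share was 26.6%, and so few regions allow no comparison with it. Median folds were 0.91 and 0.72 in the authors' deposited EBF1-dTAG_N and EBF1-dTAG_C tables. Bcl2l11, the pro-apoptotic protein BIM, rose by 1.74 in the authors' deposited EBF1-dTAG_N table (adjusted p = 0.00255), with 0.80 in EBF1-dTAG_C (0.761). Ccnd3, the cyclin D3 that pre-B cells need to divide, held a strong one at chr17:47515541-47515778 with pileups of 23, 20 and 21. It rose by 1.31 in EBF1-dTAG_N (adjusted p = 8.84e-07), with 1.13 in EBF1-dTAG_C (0.337), in the authors' deposited tables. Cish, a feedback inhibitor of STAT5 signalling, had pileups of 30 and 16 in 1 dTAG-13 list of each line, rose by 1.05 in the authors' deposited EBF1-dTAG_N table (adjusted p = 3.01e-05) and had 0.61 in EBF1-dTAG_C (0.618). The pileups at Ccnd3 and Cish were higher than those at Bcl2l11, of 7, 8 and 6. Pou2f2, of the B lineage transcription factor list, had a start-site region with pileups of 27 and 26 in 1 dTAG-13 list of each line. Its log2 fold changes in the authors' deposited tables were small, 0.18 in EBF1-dTAG_N (adjusted p = 0.488) and 0.17 in EBF1-dTAG_C (0.811). The other lists had single or paired regions. Among AP-1 and immediate early genes, 2 of 19 held one (2.15% of 93 regions): Maff, a small MAF factor, rose by 1.62 in the authors' deposited EBF1-dTAG_N table (adjusted p = 0.000614), with 0.28 in EBF1-dTAG_C (0.849), and Dusp1 had 0.83 (0.309) in EBF1-dTAG_N. Nfkb1 was 1 of 14 NF-kB genes (1.43% of 70 regions), at 0.57 (0.160) in the authors' deposited EBF1-dTAG_N table. Tle4, a Groucho corepressor, was 1 of 13 corepressor, Notch and Id genes (0.769% of 130 regions) and rose by 2.10 in the authors' deposited EBF1-dTAG_N table (adjusted p = 0.00271), with 1.08 in EBF1-dTAG_C (0.485).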

How the data were processed

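ATAC-seq was performed on 8 libraries, 2 for each line and agent, grouped by the genotype and treatment labels. The submitters' processing notes list, without their roles, MACS2 2.2.7.1, edgeR 3.32.0, deepTools 3.3.2, SAMtools 1.10, Bowtie2 2.3.5.1 and the build GRCm38 (mm10). For read filters and the Tn5 shift, nothing is given in the sources used here. The authors deposited 1 peak list per library, with a peak score, a fold ratio of enrichment, −log10 p-values and q-values and a summit offset. For each line they deposited a table with log2 fold changes, mean log2 CPM, an F score, p-values and adjusted p-values, named as edgeR's per the labels, and no values per library. Folds and p-values of regions are theirs and carry no SD or n. By their degrees of freedom, the EBF1-dTAG_N p-values rest on a spread pooled over regions and not on the replicates of each.

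Repeated table entries were counted once (12 in EBF1-dTAG_N, 8 in EBF1-dTAG_C). Overlaps of at least 1 bp linked peaks, regions and tables. Whole-number summit pileups were solved from fold and p-value (relative tolerance 0.0002). In each list 98.3% to 99.9% of peaks gave one. The solver and the rule were tested on simulated data. Genes, start sites and promoter sequences came from RefSeq (GRCm38.p6). Distances to a start used the 79.9% of coding genes with a start site and either end of the span for the others. Members and gene lists were chosen with earlier results of these data known. Named regions were the 15 best by summed fold ranks among those in all 4 lists, the 5 smallest EBF1-dTAG_C p-values, at most 3 genes per list, the genes with most regions, those nearest the rule's edge and the 5 lowest folds. Regions called higher in EBF1-dTAG_C, called lower in EBF1-dTAG_N or at start sites were added after values were seen. Motifs were searched only in promoter windows, since no genome was used. Python 3.11.15, pandas 2.3.3, numpy 2.4.6, scipy 1.17.1 and matplotlib 3.10.9 were used. Alternatives covered peak thresholds, equal list lengths, overlap, the peak list of each library left out, centring, degrees of freedom and low abundance.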

Additional observations from a re-analysis of the deposited data

How the results depend on the processing

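No paired analysis was possible because the deposited tables hold no values per library. Of 141 values recomputed under 21 alternatives, 97 were labelled close to the reported value and 44 moved. For counts this label was wide. It took in 1585 newly called regions without EBF1-dTAG_C DMSO replicate 1, against 1109. It also took in 205 called higher in EBF1-dTAG_N with a −log10 q of at least 10 in all lists, against 295. Median folds stayed positive, which the selection favours. Leaving out a library removed only its peak list, and folds and calls stayed those of the full deposited tables. The number of newly called regions was 581 to 1797 with 1 library left out: 581 without EBF1-dTAG_N dTAG-13 replicate 2, 592 and 706 without EBF1-dTAG_C dTAG-13 replicates 1 and 2, and 1797 without EBF1-dTAG_C DMSO replicate 2. DMSO-only regions numbered 3199 to 5488 then, regions called higher 144 to 520 in EBF1-dTAG_N and 5 to 10 in EBF1-dTAG_C, median log2 folds were 0.71 to 0.88 and 0.56 to 0.69, near-start shares 5.07% to 6.68% and shares inside genes 52.8% to 56.5%. With a −log10 q of at least 10 in all lists there were 480 newly called regions, of which 69 were among the 1109, with 31 in all 4 lists, 5 higher in EBF1-dTAG_C, a median EBF1-dTAG_C fold of 0.62 and 9.38% near a start. A −log10 q of at least 5 in the dTAG-13 lists only gave 38 in all 4 lists and 5 higher in EBF1-dTAG_C. The 34202 best peaks of every list gave 1815 newly called and 3017 DMSO-only regions. Of the newly called ones, 172 were in all 4 lists, 561 were higher in EBF1-dTAG_N and 811 were among the 1109. Their medians were 0.76 and 0.56. Asking for both dTAG-13 lists of each line left 67 regions, 34 higher in EBF1-dTAG_N and 2 in EBF1-dTAG_C, medians of 0.98 and 0.81, and 1918 DMSO-only regions. Centred folds gave 190 higher in EBF1-dTAG_N and medians of 0.67 and 0.58. The EBF1-dTAG_C degrees of freedom gave 175. Abundance at or above the table's median left 56 higher in EBF1-dTAG_N and 3 in EBF1-dTAG_C, with medians of 0.40 and 0.38. Near-start shares were 3.88% within 500 bp and 10.6% within 2500 bp. Regions with no DMSO peak beside them, a setting chosen after seeing the data, had a median EBF1-dTAG_C fold of 0.70. The cause of these shifts was not tested. Fewer lists or a stricter threshold change how many regions can qualify by construction. Peaks of pileup 4 to 9 lie at the limit of what these libraries could call, so a missing DMSO peak does not show closed chromatin.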
